A study of Homo sapiens with 6 samples.

Results

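The genes described here encode the nuclear pore complex and the proteins that carry cargo through it. The 49 genes were taken by symbol from a list of scaffold, membrane, channel, basket and cytoplasmic nucleoporins, importins, exportins and members of the Ran cycle, out of 63236 genes in the expression table. The symbol matched 48 of them, and NUP42, which the table lists under its older symbol NUPL2, was matched by its identifier ENSG00000136243.16. All 49 are protein-coding, and they lie on 18 chromosomes. By role they are 27 nucleoporins, 19 transport receptors and 3 genes of the Ran cycle.

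RNA came from FUJIOKA, an acute myeloid leukaemia cell line, stably transduced with a doxycycline-inducible shRNA in the Tet-pLKO-puro vector. The 3 shNEG libraries carry a scrambled control shRNA and the 3 shSPINK2 libraries an shRNA against SPINK2, a gene for a Kazal-type inhibitor of serine proteases. The labels describe 2 such shRNAs and the study's methods 1, and the labels do not say which library holds which. The time on doxycycline before RNA was taken is not given in the sources used here, and nothing says whether the 3 libraries of a group came from separate cultures. All groups are therefore transduced, puromycin-vector derivatives of a single line.

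The only measured value used is the authors' mean normalised read count of each gene over all 6 libraries. It merges shNEG and shSPINK2, so levels could be compared between genes but not between the groups, and no spread between libraries can be given. No test was run. The mean of SPINK2 itself was 32.3 normalised reads (95% counting interval 27.9 to 37.2), or 44.7 per kilobase of transcript, at percentile 17.0 of the protein-coding genes. As a mean over both groups it does not check the knockdown. Haematopoietic markers were read in number, with means of 9179 for PTPRC (CD45), 10672 for the myeloid transcription factor SPI1, 7777 for CD33 and 1844 for MPO, while the progenitor markers CD34 and KIT had means of 19.6 and 0.666. Among markers of other cell types, COL1A1 had a mean of 149, CD3E of 0.500 and MS4A1 of 0.333, and EPCAM, ALB and HBA1 were listed at 0, where 3 reads over 6 libraries, taken as the limit that a count of 0 allows, would be a mean of 0.5.

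Nuclear pores are channels through the nuclear envelope. A scaffold of Y-shaped and inner-ring subcomplexes is anchored in the membrane and holds disordered nucleoporins rich in phenylalanine-glycine (FG) repeats, which fill the channel and bind transport receptors. Importins carry proteins with a nuclear localisation signal inward and exportins carry proteins and RNAs outward, and the GTPase Ran, loaded with GTP in the nucleus and discharged in the cytoplasm, gives the traffic its direction. In acute myeloid leukaemia, the genes NUP98 and NUP214 are known partners in chromosomal translocations, and the exportin XPO1 is a drug target.

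Some of these genes have close copies elsewhere in the genome, which bears most on the level given for POM121. The listed copies summed to 79.5% of the mean of POM121 and 2.89% of that of RANBP2. For every other gene with listed copies they summed to at most 0.334%. In the coding sequence of POM121, a membrane nucleoporin, 459 bases in a row are shared with its paralogue POM121C and end at the base in capitals in the first pair of sequences. In RANBP2, the giant nucleoporin of the cytoplasmic filaments, 266 bases in a row are shared with RGPD3, a gene of the RANBP2-like family, and end at the capital of the second pair. The stretches of 60 bases below, read 5′ to 3′ in the direction of transcription from the GENCODE transcripts on GRCh38, are shown because only the letter in capitals tells the members of a pair apart there. They are POM121 at chr7:72942664-72942723 (plus strand), POM121C at chr7:75422317-75422376 (minus strand), RANBP2 at chr2:108767973-108768032 (plus strand) and RGPD3 at chr2:106423399-106423458 (minus strand).
POM121: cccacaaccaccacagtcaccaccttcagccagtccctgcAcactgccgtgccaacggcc
POM121C: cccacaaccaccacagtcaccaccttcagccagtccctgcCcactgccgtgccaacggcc
RANBP2: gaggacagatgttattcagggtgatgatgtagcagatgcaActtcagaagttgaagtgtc
RGPD3: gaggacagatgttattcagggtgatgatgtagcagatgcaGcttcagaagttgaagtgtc

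Levels below are the authors' mean divided by the length of the gene's Ensembl canonical transcript in kilobases. Brackets hold the 95% exact Poisson interval, which covers counting error only, on about 6 times the mean reads. Percentiles are among 12444 protein-coding genes with a mean of at least 10, whose median level was 352 per kilobase. All but 3 of the 49 genes lay above that median, 27 lay above percentile 75 and 7 above percentile 90. Together they took 0.892% of the summed means of all genes. Levels ran from 21.2 per kilobase for IPO4 to 9571 for RAN. Counting error was small beside this range. The intervals were 0.52% to 3.25% of the level on either side for 48 genes and 9.41% for IPO4, and 16 of the 48 pairs of neighbours in the order of levels had overlapping intervals. In bulk RNA, fewer expressing cells and less RNA per cell cannot be told apart.

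**Figure D1:**
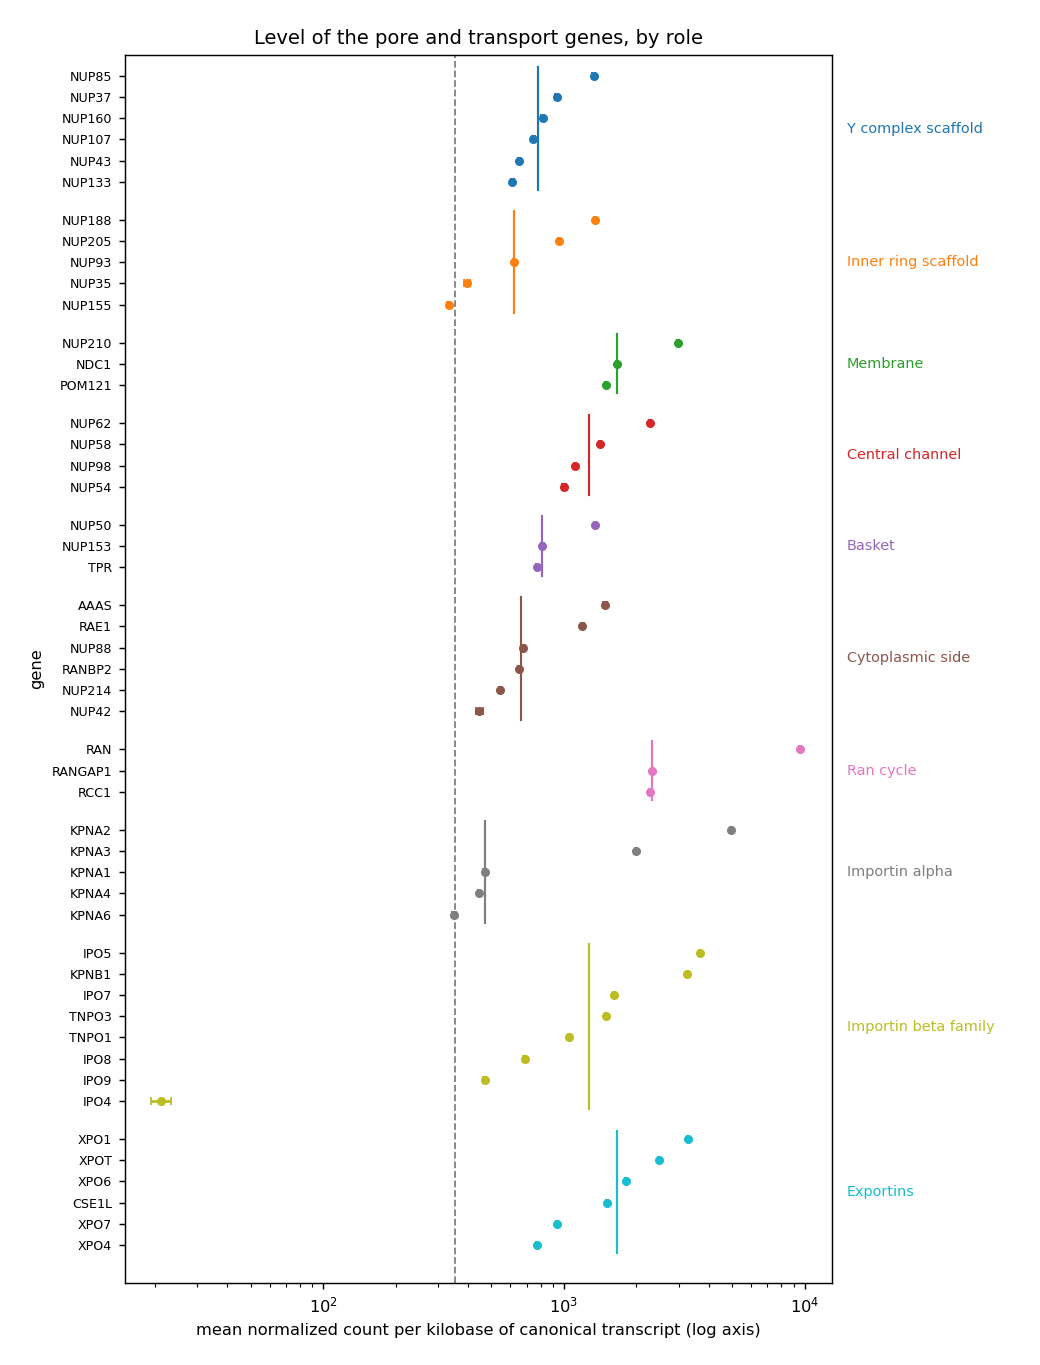
Level of each of the 49 genes by role, as the authors' mean normalised read count over 6 libraries per kilobase of canonical transcript, on a log axis. Points are genes, bars are 95% counting intervals and role medians are marked. RAN (9571) and KPNA2 (4934) lie highest and IPO4 (21.2) stands far below all others.

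RAN had the highest level of the 49 genes on each of the lengths used. RAN, the GTPase (ENSG00000132341.11, chr12:130872037-130877678, GRCh38, plus strand), had a mean of 23679.7 normalised reads and 9571 per kilobase (9522 to 9621), at percentile 97.9 and 27.2 times the median gene. RANGAP1, which activates GTP hydrolysis by Ran in the cytoplasm, had 2334 per kilobase (2314 to 2353), and RCC1, the chromatin-bound exchange factor that reloads Ran with GTP, had 2283 (2259 to 2307). RAN therefore exceeded RANGAP1 by 4.10 times, by 3.49 times on the length of all merged exons and by 7.20 times on the coding length. RANGAP1 and RCC1 lay close together, with counting intervals that just miss each other, and their order depended on the length used (RCC1 to RANGAP1 ratios of 0.978 on the canonical transcript, 1.03 on merged exons and 0.909 on the coding length).

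Importin alpha proteins recognise the classical nuclear localisation signal and bind importin beta. KPNA2 (importin alpha-1, ENSG00000182481.8, chr17:68035636-68047364, plus strand) had a mean of 9754 reads and 4934 per kilobase (4894 to 4974), at percentile 95.3 and 14.0 times the median gene. KPNA3 followed at 2000.3 per kilobase. KPNA1 lay at 469 (462 to 476), KPNA4 at 444 and KPNA6 at 349 (344 to 355), which is at the median of protein-coding genes. The adaptors were thus spread over 14.1 times, and KPNA2 made up 60.2% of their summed level and KPNA3 24.4%. Those shares depended on the length used. KPNA2 held 30.5% on merged exons, where KPNA3 held 46.1%, and 34.7% on the coding length, where KPNA3 held 30.5%. KPNA2 stayed above KPNA6 on each length, by 14.1, 3.84 and 3.84 times in that order.

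The importin beta family binds FG repeats and cargo. IPO5, an importin of ribosomal proteins and histones, had 3665 per kilobase (3645 to 3685) and KPNB1 (importin beta-1, chr17:47649476-47685505, plus strand), the partner of the alpha adaptors, had 3261 (3243 to 3280.0). These genes held 29.9% and 26.6% of the family's summed level. IPO7 lay at 1616 and its paralogue IPO8 at 688, a ratio of 2.35 on the canonical transcript, 2.62 on merged exons and 2.78 on the coding length. TNPO3, which imports splicing factors with serine-arginine repeats, had 1496 and TNPO1, the receptor of proline-tyrosine signals, 1051. IPO9, an importer of histones, had 469 (464 to 474), with an interval that overlaps that of KPNA1. KPNB1 was above TNPO1 by 3.10 times, and on the other lengths by 2.81 and 2.27 times. The orders of KPNB1 with KPNA2 (ratios of 0.661, 1.45 and 1.22), of KPNB1 with IPO5 (0.890, 0.842 and 1.12), and of TNPO1 with TNPO3 (0.703, 0.490 and 1.41) turned with the length used.

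IPO4, an importer of histones and ribosomal proteins, was the outlying gene of the family and of all 49. Its mean was 74.1 reads (67.4 to 81.4) and its level 21.2 per kilobase (19.3 to 23.3), at percentile 11.5, against 349 or more for the other 12 importins. The gene (ENSG00000196497.16, chr14:24180219-24188869, minus strand) overlaps a second listed gene, the readthrough transcript AL136295.4 (ENSG00000259522), on the same strand. Exons of AL136295.4 cover 3322 of the 3498 bases of the canonical IPO4 transcript, and of the 150-base windows of that transcript, a window being as long as a read, 94.7% also occur in a transcript of another gene. AL136295.4 itself had a mean of 2.15 reads. Over the 137 bases that no other listed gene covers, the same 74.1 reads amount to 541 per kilobase (492 to 594). Those 137 bases are fewer than the 150 of a read, so no full-length read can lie wholly within them. The value of 541 is therefore not a measure of the IPO4 level. The sources used here do not give the setting by which reads on more than 1 gene were counted or dropped, and the part of the overlap in the low value was not tested.

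**Figure D2:**
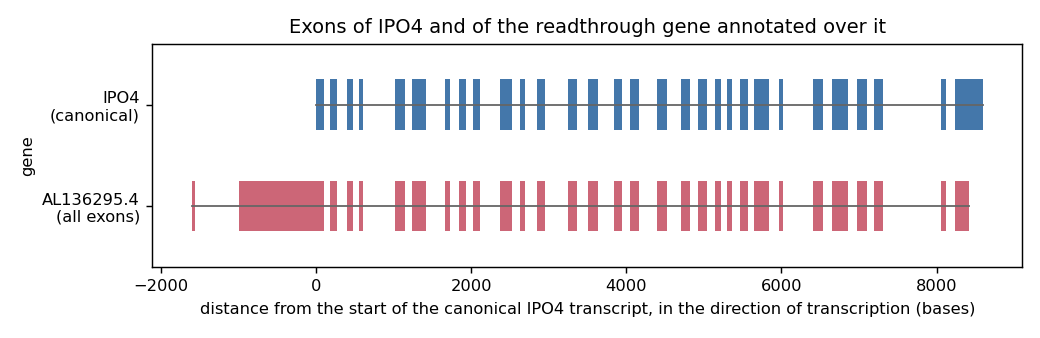
Exons of the canonical IPO4 transcript and of the readthrough gene AL136295.4 along the genome, introns included. The axis is distance in bases from the start of the canonical IPO4 transcript, in the direction of transcription. REC8, which covers 39 bases on the opposite strand, is not drawn. Exons of the readthrough gene AL136295.4 cover 3322 of 3498 bases, and 137 bases are covered by no other listed gene.

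Exportins carry cargo outward in complex with Ran-GTP. XPO1 (CRM1, ENSG00000082898.16, chr2:61476032-61538741, minus strand), the receptor of leucine-rich export signals, had a mean of 16296 reads and 3267 per kilobase (3247 to 3288), at percentile 92.9. XPOT, which exports tRNA, had 2473. XPO6, the exportin of actin, had 1811, and CSE1L, which returns importin alpha to the cytoplasm, had 1516. XPO7 had 938 and XPO4, which exports the translation factor eIF5A, had 774. XPO1 held 30.3% of the summed exportin level and XPOT 22.9%. The first place of XPO1 held for the canonical transcript of 4988 bases and not for merged exons or the coding length. Its merged exons span 23843 bases, on which XPO1 had 683 per kilobase, 10.1% of the exportin sum and 0.318 times XPOT, and on the coding length XPO1 was 0.929 times XPOT. The ratio of XPO1 to XPO4 was 4.22 on the canonical transcript, 0.940 on merged exons and 2.30 on the coding length. CSE1L lay below its cargo KPNA2 on the canonical transcript and the coding length (0.307 and 0.301 times) and level with it on merged exons (1.07).

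Among the scaffold genes, the 6 listed from the Y complex, the outer ring of the pore, were more even than the 5 of the inner ring. They lay within 2.18 times of each other. NUP85 had 1330.4 per kilobase, NUP37 933, NUP160 817, NUP107 747, NUP43 654 and NUP133 609.6. SEC13, SEH1L and AHCTF1, given below with the further pore genes, were not among the 6. SEC13 (4728) and SEH1L (2041) lay above all 6 and AHCTF1 (217) below. The evenness therefore held for these 6 genes and not for the Y complex as a whole. NUP107 and NUP133, which join at the stem of the Y, had a ratio of 1.23 (1.10 on merged exons and 1.83 on the coding length). The 5 inner ring genes spanned 4.05 times. NUP188 had 1349.5 and its relative NUP205 had 954, NUP93, which links both to the FG nucleoporins, had 619, NUP35 had 396 (383 to 409) and NUP155 had 333 (328 to 338), below the median protein-coding gene. NUP93 was below NUP188 and NUP205 on the canonical transcript (0.459 and 0.649 times) and on merged exons (0.480 and 0.584 times), and above both on the coding length (1.42 and 2.10 times).

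The 3 membrane genes had the highest median of any part of the pore on the canonical transcript, 1656 per kilobase. NUP210 (gp210, ENSG00000132182.11, chr3:13316235-13420322, minus strand), which spans the membrane once and projects into its lumen, had a mean of 21482 reads and 2981 per kilobase (2965 to 2997), at percentile 92.1. It was the highest of the 27 nucleoporins on the canonical transcript and on merged exons (1613), while on the coding length its 3795 lay below the 4884 of NUP62 and the 4953 of NUP50. NDC1, the membrane protein needed for pore assembly, had 1656 and POM121 (ENSG00000196313.11, chr7:72879349-72951440, plus strand) had 1491. The POM121 value is uncertain, as of its 150-base windows 34.4% also occur in another gene, 19.2% in POM121C. POM121C was listed at a mean of 6865 reads, 78.8% of the 8709 of POM121, and the pair summed to 15574.

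In the channel, NUP62, the centre of the trimer with NUP58 and NUP54, had 2276 per kilobase (2255 to 2296), NUP58 had 1417 and NUP54 had 1004. NUP98, an FG nucleoporin at both faces of the pore, had 1116. Genes of the trimer kept the order NUP62, NUP58, NUP54 on each length, with ratios of NUP62 to NUP58 of 1.61, 2.83 and 1.46 and of NUP58 to NUP54 of 1.41, 3.09 and 2.25 on the canonical transcript, merged exons and coding length.

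The basket genes NUP50, NUP153 and TPR project into the nucleus. NUP50, a cofactor of importin release, had 1350.2 per kilobase, NUP153, which recruits it, had 815, and TPR, the coiled-coil backbone of the filaments, had 771.

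On the cytoplasmic side, AAAS (ALADIN), which NDC1 holds at the pore, had 1481 per kilobase and the mRNA export factor RAE1 had 1191. NUP88 had 679.7 and its partner NUP214 had 544, a ratio of NUP214 to NUP88 of 0.801 (0.811 on merged exons and 0.595 on the coding length). RANBP2, which anchors RANGAP1 to the filaments, had 651, and NUP42, a docking site of the mRNA export machinery, had 446 (432 to 459). The copies of RANBP2 took few reads. The 7 RGPD genes listed summed to a mean of 220.5 reads, 2.89% of the 7619 of RANBP2, with RGPD8 the highest at 197, and of the RANBP2 windows 6.59% occur in another gene.

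The classes overlapped widely. The median level was 747 per kilobase for the 11 scaffold genes (333 to 1349.5), 1267 for the 4 channel genes (1004 to 2276), 815 for the 3 basket genes (771 to 1350.2), 1051 for the 13 importins (21.2 to 4934) and 1663 for the 6 exportins (774 to 3267). Their median percentiles were 69.6, 80.4, 71.8, 77.0 and 84.8 in that order. All 6 exportins lay above the scaffold median, and 4 lay above the highest scaffold gene. Of the 13 importins, 7 and 6 did. The nucleoporins as a whole had a median of 933 per kilobase (percentile 74.6) and the receptors 1496 (percentile 83.4), and 12 of 19 receptors lay above the nucleoporin median. NUP210, NUP62 and NDC1 were the 3 of 27 nucleoporins above the receptor median. On the canonical transcript the exportins were spread over 4.22 times, close to the 4.05 times of the scaffold, the channel over 2.27 times and the basket over 1.75 times. The importin beta family spanned 173 times, which IPO4 sets.

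**Figure D3:**
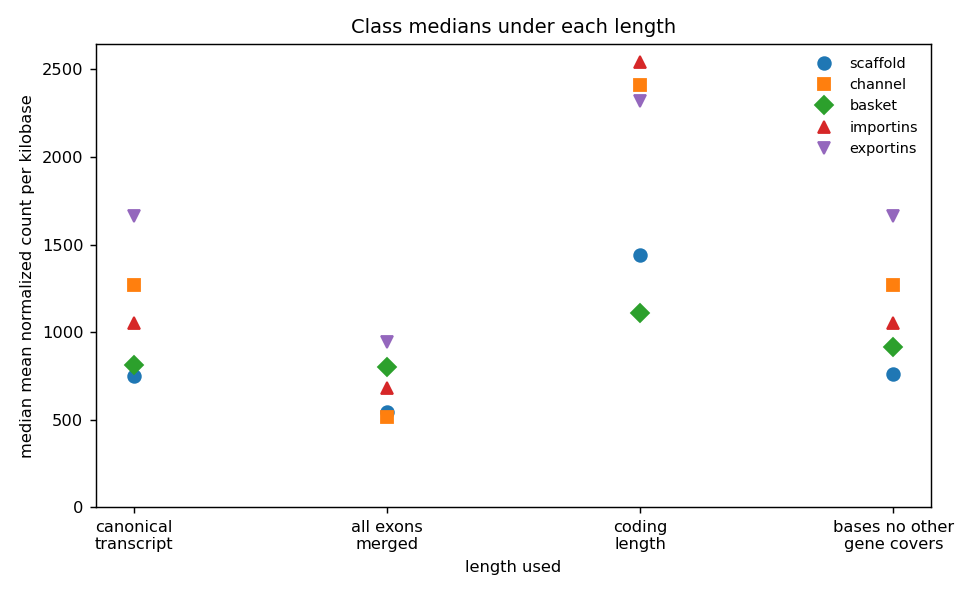
Median level of the scaffold, channel, basket, importin and exportin genes, in reads per kilobase. The authors' mean is divided by the canonical transcript, the merged exons, the coding length or the canonical bases that no other listed gene covers. Exportins are highest on the canonical transcript (1663) and importins on the coding length (2543).

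The order of these medians changed with the length used. On the canonical transcript exportins came first, followed by channel, importins, basket and scaffold. On merged exons the channel fell to 514 per kilobase, the lowest of the 5 medians, and exportins led at 941. On the coding length the importins led at 2543, ahead of the channel at 2413 and the exportins at 2322.

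A minority of the genes share a full 150-base stretch with a transcript of another gene. Shorter shared stretches were not counted, and no reads were examined. No 150-base window of 30 genes occurs in another gene, 19 share at least 1 window, and 6 share more than 10%, namely IPO4, NUP88, POM121, NUP42, KPNA1 and NUP62. By its identifier, the only partner of NUP42, with 29.6% of its windows, is not among the listed genes. Nor is that of NSUN5P2, which holds 10.0% of the POM121 windows, and neither was looked up by symbol. NSUN5, which is listed with a mean of 8376 reads, holds 3.25% of the POM121 windows. Exons of another listed gene cover part of the canonical transcript in 18 genes, and more than 10% of it in 5. For NUP88 the partner is RABEP1 on the opposite strand, with a mean of 3495 reads, which covers 39.8% of the transcript. Only if all its reads lay on the bases that no other listed gene covers would NUP88 have 1141 per kilobase. An antisense gene, AC083798.2, with a mean of 34.9 reads, covers 20.0% of KPNA1, and AL138724.1, with 69.3, covers 10.8% of NUP153. Whether reads were counted by strand is not given in the sources used here, and without it reads of such partners cannot be told apart. NUP62 shares 20.4% of its bases with IL4I1 and AC011452.1 on its own strand, which had means of 85.8 and 0. With all its reads placed on the bases that no other listed gene covers, NUP62 would have 2858 per kilobase. SNHG3, with a mean of 1910 reads, covers 5.92% of RCC1 on the same strand. With all its reads placed on the bases that no other listed gene covers, RCC1 would have 2427 per kilobase. Of 41 copies listed for 12 of the genes, POM121C, the RGPD genes and pseudogenes together, 26 were above 0. The 14 copies of RAN, 6 of them above 0, summed to 0.334% of the RAN mean.

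**Figure D4:**
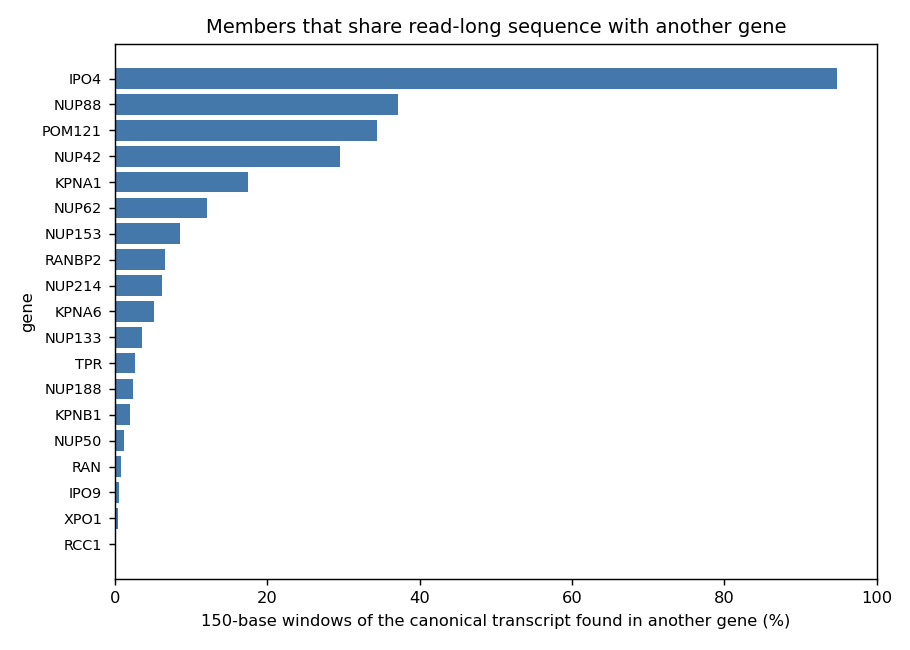
Share of the 150-base windows of each canonical transcript that also occur in a transcript of another gene, in percent, for the 19 genes with any. IPO4 (94.7%), NUP88 (37.2%) and POM121 (34.4%) stand highest.

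Pore and transport genes outside the 49 with a mean of at least 10 lay within the span of the 49, 21.2 to 9571 per kilobase. The further pore genes reached beyond the 27 nucleoporins (333 to 2981) at both ends. Of 9 further pore genes listed, 8 had a mean of at least 10, with a median of 920.4 per kilobase. SEC13, shared with the coat of secretory vesicles, was highest at 4728, SEH1L, its relative in the Y complex, had 2041, and AHCTF1 (ELYS), which seeds pores on chromatin, had 217. GLE1 and DDX19A, which release mRNA at the cytoplasmic face, had 1209 and 359, and DDX19B was lowest at 79.6. NUP62CL was listed at 0. Of 18 further transport genes, 16 had a mean of at least 10, with a median of 976. RANBP1, which binds Ran-GTP in the cytoplasm, had 9236 per kilobase, near RAN itself. NUTF2, which brings Ran back into the nucleus, had 2865, and HIKESHI, the importer of Hsp70, had 1889. The mRNA export receptor NXF1 had 1313, TNPO2 had 991 against 1051 for its paralogue TNPO1, XPO5, the exportin of microRNA precursors, had 961 and the adaptor KPNA5 had 44.7. KPNA7 and RANBP17 were listed at 0.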

How the data were processed

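The 6 FUJIOKA libraries (3 shNEG, 3 shSPINK2) were made, per the study's methods, with an mRNA library kit and sequenced as paired reads of 150 bases. Per the submitters' processing notes the authors used STAR 2.7.11 and DESeq2 1.40.0 on hg38, and the methods name featureCounts. The deposited table holds, per gene, a mean normalised count over all libraries (a signal scaled by size factors), which is used here, and the authors' own comparison of the groups (fold change, its error, statistic, p-values and status), which is not used. The means of all genes sum to 38425214 normalised reads, an average over the libraries, and the depth of each single library is not given. Values shared by 546 to 662 genes each, at 0.161 to 0.169, match 1 read in 1 of 6 libraries, so size factors lie near 1 and reads were taken as 6 times the mean for counting intervals. Such intervals treat reads as independent molecules.

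Gene IDs were joined without version to GENCODE 44 (GRCh38); the release the authors used is not given in the sources used here. Of the IDs, 57532 (91.0%) matched, and 99.1% of those with a mean of at least 10. Levels, ranks, overlaps and windows were computed in Python 3.11.15 (numpy 2.4.6, scipy 1.17.1, pandas 2.3.3, matplotlib 3.10.9) and tested on simulated data. All 49 genes are named by role, with SPINK2, marker genes and fixed lists of other pore and transport genes and copies. Members and lists were chosen with earlier results of these data known. A marker of the fixed list is not reported here. Alternatives changed the length, the genes counted or ranked and the summary.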

Additional observations from a re-analysis of the deposited data

How the results depend on the processing

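No paired analysis was possible because the value used is a single mean over both groups and comes from no test. For the same reason the comparison of shSPINK2 with shNEG was not run, and neither were its alternatives (other size factors, no filter on low counts, leaving out each replicate). Medians in reads per kilobase on merged exons were 546 for scaffold, 514 for channel, 802 for basket, 681 for importins and 941 for exportins, and on the coding length 1442, 2413, 1109, 2543 and 2322. Means over the members in place of medians were 795, 1453, 979, 1574 and 1796. Without members that have a copy with reads, importins fell to a median of 469, the lowest of the 5 classes, and exportins had 1516. The importins left out were KPNA2, IPO5, IPO7, IPO8 and TNPO1. Their copies summed to 0.0306% (KPNA2) to 0.133% (IPO7) of the member's mean, and none of their windows occurs in another gene. KPNA2 and IPO5 had the highest importin levels on the canonical transcript. The fall thus reflects which members were left out and is not a measure of reads from copies. A pair of alternatives was chosen after seeing the data. With all reads of each gene placed on the bases that no other listed gene covers, scaffold had 759 and basket 913. Without members sharing over 10% of windows, channel had 1116 and importins 1496. The exportin median was highest under each of these except the coding length. The percentile of the median nucleoporin (74.6) was 80.4 among genes with a mean above 0, 71.8 among those with at least 50 and 75.1 on merged exons, and that of the median receptor (83.4) was 87.2, 81.5 and 80.7. The mean gives no spread between libraries, so differences between neighbouring genes cannot be set against replicate error.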
